A study of Apocynum venetum with 18 samples.

Results

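In leaves of Apocynum venetum moved to salt, 56 transcripts were at least 4 times above their starting level at every later sampling, from 2 h to 48 h. They were taken from 45222 transcripts that passed a filter on low counts, of 53545 deposited, by one rule on the mean level at each time. The level was in CPM, a library's counts brought to a common total, scaled between libraries by TMM. A member had a mean of at least 1 CPM at 0 h, a mean at least 4 times as high at each later time, and a mean under 700 CPM over all libraries. The members thus make up 0.124% of the transcripts tested, and 2 further transcripts met the folds but stood above 700 CPM. Because the rule used the means at all 6 times, every comparison of the members with 0 h below is a description and carries no test.

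Leaf RNA was sequenced in 18 libraries, 3 at each of 6 times, the first at 0 h and the later ones at 2 and 6 h, at 12 and 24 h, and at 48 h. All 6 groups, 0 h included, are labelled with the same wild plants and the same nutrient solution with 300 mmol/L NaCl. The labels give the organism as Apocynum venetum and the line as wild P. apocinae, and the design text also writes Apocynum japonicum. That text describes unsalted control plants, but no library carries an unsalted label, so time in salt cannot be told apart from hour of day or handling. The labels do not say which plant a library came from, and p-values therefore measure only how these libraries vary, which may be technical. Library totals ran from 17933939 to 24731213 estimated counts.

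Apocynum venetum is a fibre and medicinal shrub of saline and arid ground. In plants, salt at the root first lowers water uptake, and sodium and chloride then build up in the leaf. Leaves are known to answer with the hormone abscisic acid, with transport of sodium out of the cell and into the vacuole, with compatible solutes such as proline, and with enzymes against reactive oxygen. Transcripts that rise early and stay high in salt are often of this kind in well-studied plants, but which of these, if any, are among the 56 cannot be read from the values used here. Of the 56, 1 carries a deposited name, against 5.57% of the transcripts tested. The deposited names were not used, since an earlier analysis of these data had put them in doubt, and the leaf label could not be checked against marker genes. Members are therefore called by their length in nucleotides (nt), and 3 of them also by their ID.

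A pair of libraries stood apart in these transcripts. The library labelled 0 h replicate 2 had the highest level of its time in 45 members, and the library labelled 2 h replicate 2 had the lowest level of its time in 48. Both held in 40 members (71.4%), against 23.7% of the transcripts tested. The 2 libraries were picked as extreme in these same members, which lifts the members' share. In 18 members the 1 CPM floor was met only through 0 h replicate 2, so the rule itself favoured a high level there. The median ratio of 0 h replicate 2 to the mean of the other 0 h libraries was 3.17, and that of 2 h replicate 2 to the mean of the other 2 h libraries was 0.298. These 2 libraries were close to each other in the median only, with a median ratio of 2 h replicate 2 to 0 h replicate 2 of 1.22. In 19 members the 0 h library of the pair was higher, and in 10 the 2 h library was at least 4 times the 0 h library. Whether the pair was exchanged or mixed in handling was not tested, and the labels were kept as given. The main values at 0 h and 2 h are given with and without the pair. The members were chosen with it in, so values without it are no separate check.

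Summed over all 56 members, the level was 181, 862 and 220 CPM in 0 h replicates 1, 2 and 3. TMM-scaled CPM do not add up to the same total in each library, so these sums are not shares of the counts. At 2 h the sums were 2908, 1274 and 2988 CPM, and at 6 h they were 2244, 4683 and 3209 CPM. Every 2 h and 6 h library was above every 0 h library, with the 2 libraries that stood apart nearest to each other. The sums reached 5976, 5524 and 4534 CPM at 12 h and 6849, 6840 and 6517 CPM at 24 h, and then stood at 6515, 5475 and 3267 CPM at 48 h. The mean sum was thus 421 ± 382 CPM (SD, n = 3) at 0 h, highest at 24 h with 6735 ± 189 CPM, and 5086 ± 1659 CPM at 48 h. In bulk leaf, more RNA per cell and more cells of a type that makes it cannot be told apart.

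**Figure D1:**
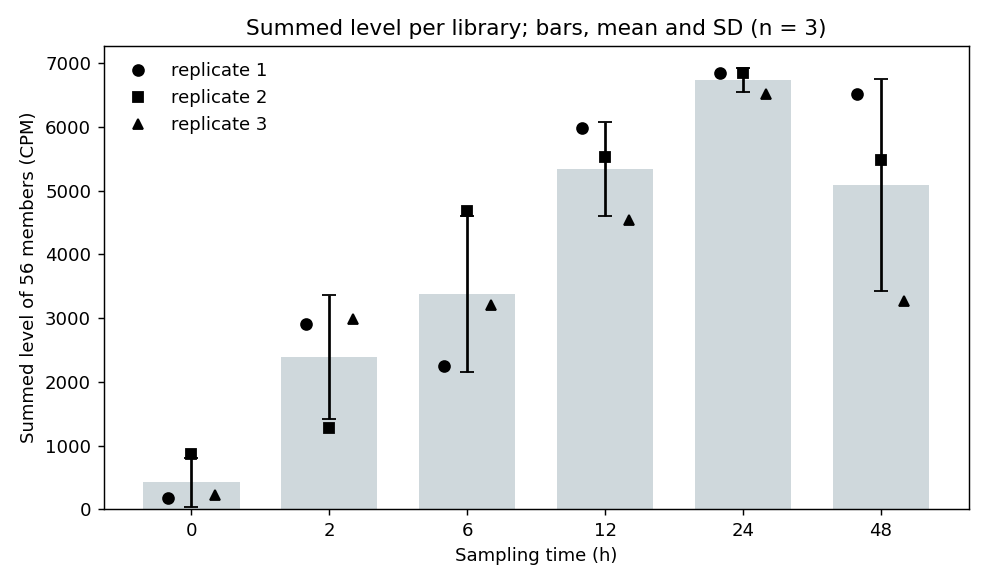
Summed level of the 56 members in each library (points, CPM) by sampling time, with the mean as a bar and the SD as a whisker (n = 3). The 0 h libraries lie between 181 and 862 CPM and every later library lies at 1274 CPM or above, with 0 h replicate 2 and 2 h replicate 2 nearest to each other.

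Per length, the median member began below the median transcript tested and stood above it from 2 h on. The median of their mean levels was 2.28 FPKM (fragments scaled by transcript length and library size) at 0 h, where all transcripts tested had a median of 3.57. At 2 h it was 14.9 FPKM against 3.58. With the pair that stood apart left out, the members' median was 0.921 FPKM at 0 h against 3.38, and 16.7 FPKM at 2 h against 3.40. With all libraries it was 26.2 FPKM at 24 h against 2.79 and 17.6 FPKM at 48 h against 2.37. On the CPM scale the median member went from 2.97 at 0 h to 20.7 at 2 h and 25.8 at 6 h, and without the pair from 1.67 at 0 h to 27.3 at 2 h. It was 40.0 at 12 h, 54.2 at 24 h and 36.4 at 48 h. Mean levels over the 18 libraries ranged from 6.42 to 438 CPM, with 7 members under 10 CPM, 34 from 10 to 100 CPM and 15 over 100 CPM.

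The folds over 0 h that chose the members had medians of 5.39, 6.22, 11.4, 12.2 and 10.9 at the 5 later times in order. The largest single fold was 128, at 12 h. The smallest of a member's 5 folds fell at 2 h in 28 members and at 6 h in 17, so the early times decided most memberships. Just inside the threshold the smallest folds were 4.01, 4.02 and 4.03, and just outside they were 3.98, 3.97 and 3.96. With the pair left out, the members' median folds were 15.0, 13.97, 21.7, 28.4 and 20.8 in the same order. In replicates 1 and 3, every member was higher at 2 h than at 0 h. The ratio of these means was 4.69 or more, and 14.9 in the median. The members were chosen with the pair in, and 18 met the 1 CPM floor only through 0 h replicate 2. Leaving that library out lowers their 0 h means and makes their folds larger. The 276 transcripts that met the rule without the pair had a median fold of 8.37 at 2 h.

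With all libraries, fewer members separated from 0 h library by library at the early times than at the late ones. At 2 h 36 of the 56 had all 3 libraries above all 0 h libraries (9.88% of the transcripts tested), and 38 did so at 6 h (14.2%). All 56 did at 12 h (22.1%), 55 did at 24 h (23%) and 56 did at 48 h (25%). All 15 later libraries were above all 0 h libraries in 30 members (2.56% of those tested). With the pair left out, all 56 were above 0 h without overlap at 2 h (35.2% of the transcripts tested) and 52 at 6 h (22.7%), and all 14 remaining later libraries were above both 0 h libraries in 52 members (9.57%). These comparisons share the 0 h libraries and were used by the rule, so nothing is read from the shares.

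**Figure D2:**
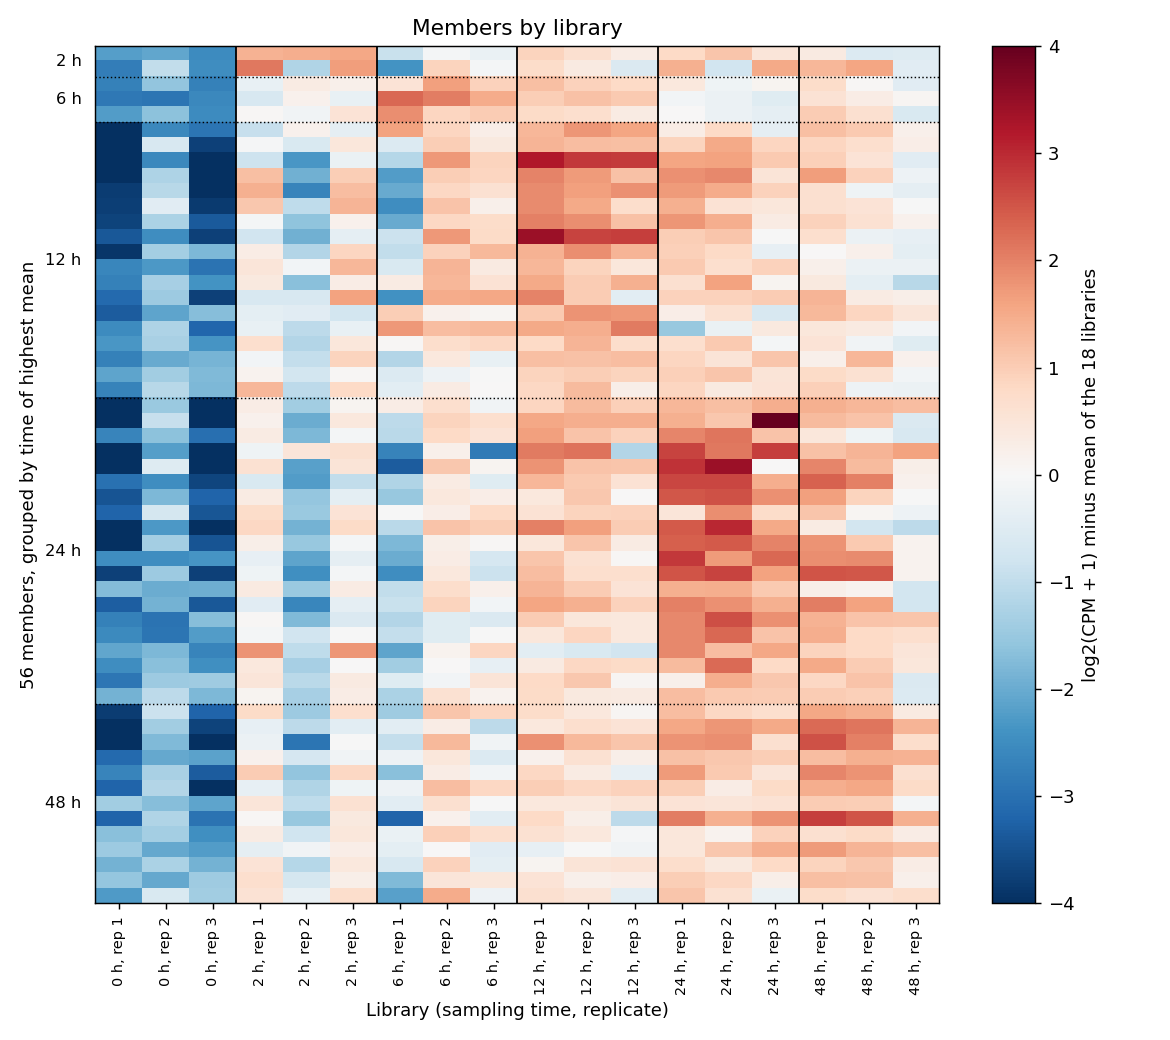
Level of each member (row) in each library (column) as log2(CPM + 1) minus that member's mean over the 18 libraries, with rows grouped by the time of the highest mean and values beyond 4 in either direction drawn at the ends of the scale. The 0 h columns are the lowest block, 0 h replicate 2 and 2 h replicate 2 stand out from the other columns of their times, and the rows peak at 12 h (18 members), 24 h (20) or 48 h (13) more often than at 2 h (2) or 6 h (3).

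The later means of a member were seldom level. These are descriptions of means over 3 libraries. In the test of any change among 2 h to 48 h, 22 members passed and 34 did not. In those 34, the differences between later means were not told apart from the spread within times. The highest mean fell at 24 h in 20 members and at 12 h in 18. It fell at 48 h in 13, and before 12 h in only 5 (2 at 2 h and 3 at 6 h). The 18 members that peaked at 12 h had median folds over 0 h of 6.75, 8.56, 18.3, 10.6 and 7.99 at the 5 later times in order. For the 20 that peaked at 24 h the medians were 5.25, 5.91, 12.4, 34.9 and 14.8. The 13 that peaked at 48 h climbed later, with 4.79, 4.82, 6.22, 10.1 and 13.9. The peak time was picked from the same means, which lifts the value at the peak. Only 4 members had means that rose at every step from 0 h to 48 h. In 36 members the 48 h mean was below the 24 h mean, and in 20 it had come down to 50% or less of the peak mean while staying above 4 times the 0 h mean. The 5 later means stayed within 2 times of each other in 8 members and within 3 times in 24.

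The comparison of 48 h with 2 h asked whether the members went on changing after the first rise, a question the rule did not use except that it set a minimum on both means. By edgeR's quasi-likelihood test, with a call at an adjusted p under 0.05 and a log2 change of at least 1 in size, 11 members rose and 1 fell, 21.4% of the members, where 10.6% of the transcripts tested rose, 12.7% fell and 23.3% did either. The share of members called was close to the background. The minimum at 48 h leaves less room for a fall than for a rise. The median log2 change of the members was 0.84 (quartiles 0.22 and 1.42), against -0.12 over all transcripts tested, and 44 members were above 0. The median standard error of a member's change was 0.64, and 44 of the 56 changes were not called. Without the library 48 h replicate 1 the count of called members was 7 (17.5% of the transcripts tested were called in that fit). With the pair that stood apart left out it was 14 (23.1%), with a median log2 change of 0.49. By limma on log2 FPKM it was 8 with a pseudocount of 1 (25.8%) and 8 with 0.1 (29.8%). The members' median log2 change was then 0.33 and 0.41, so its size depended on the scaling and the fit.

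**Figure D3:**
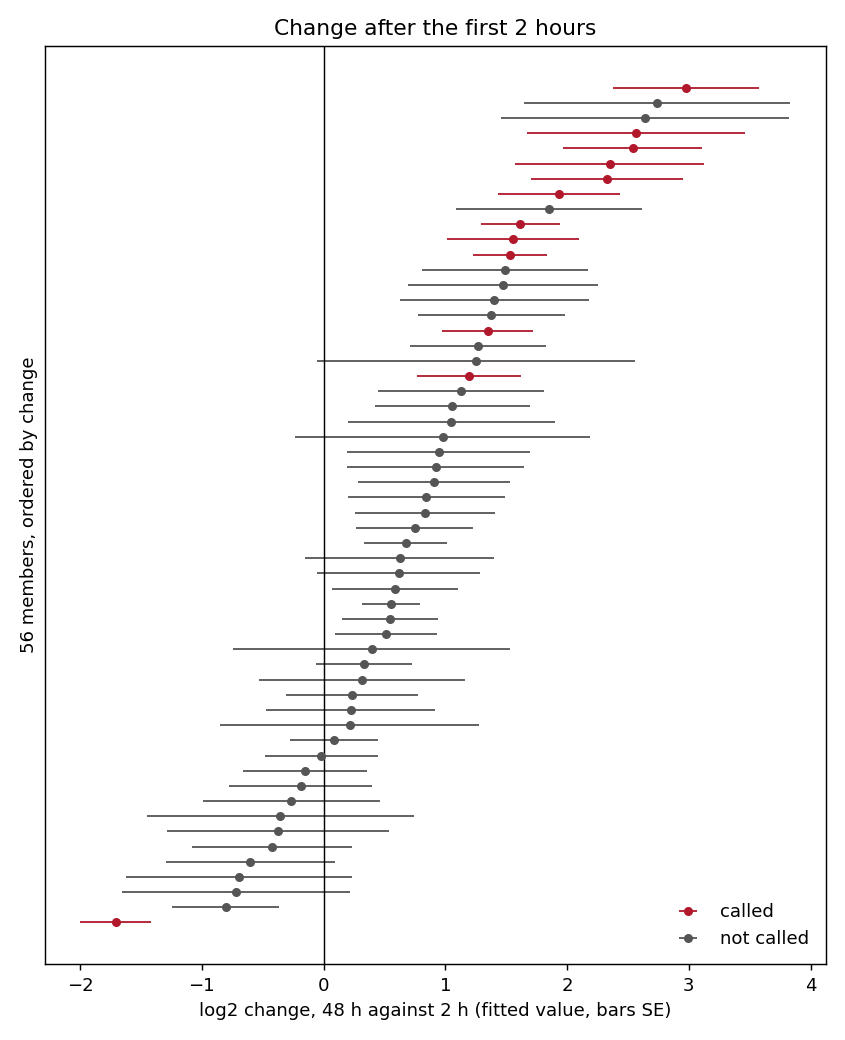
Fitted log2 change at 48 h against 2 h for each of the 56 members (points, ordered by size) with its standard error (bars), and the called members in red. The changes run from -1.71 to 2.98, with 44 above 0, 11 called rises and 1 called fall.

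The largest called rise after 2 h was that of TRINITY_DN13031_c0_g1_i2_1, of 2412 nt. Its levels were 5.68, 8.38 and 3.09 CPM at 0 h and 33.1, 10.2 and 25.4 CPM at 2 h. They were 335, 336 and 142 CPM at 24 h and 270, 212 and 58.9 CPM at 48 h. All its 48 h libraries lay above all its 2 h libraries, and replicate 3 was its lowest library at 12 h, 24 h and 48 h. The log2 change from 2 h to 48 h was 2.98 (SE 0.60, adjusted p = 0.0017).

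TRINITY_DN9540_c0_g1_i1_4, of 1820 nt, had the next largest called rise. It stood at 2.37, 20.8 and 2.01 CPM at 0 h, at 62.2, 8.84 and 71.5 CPM at 2 h, and at 428, 296 and 120 CPM at 48 h. Here the library labelled 0 h replicate 2 was above that labelled 2 h replicate 2. Its log2 change of 2.57 (SE 0.89, adjusted p = 0.041) was no longer past the threshold without 2 h replicate 1, 2 or 3 or without 48 h replicate 1 or 2, where the adjusted p was 0.062 to 0.13. It was past the threshold without 48 h replicate 3 (adjusted p = 0.033). With the pair that stood apart left out the change was 2.07 (SE 0.63, adjusted p = 0.024).

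Another 3 called rises were steadier between libraries. The 3229-nt member, the second most abundant, went from 157, 96.5 and 148 CPM at 2 h to 954, 874 and 508 CPM at 48 h, a log2 change of 2.54 (SE 0.57, adjusted p = 0.0037). The 4258-nt member went from 108, 60.1 and 88.5 CPM to 229, 260 and 255 CPM, a log2 change of 1.53 (SE 0.30, adjusted p = 0.0015). The 1491-nt member went from 6.77, 8.07 and 10.9 CPM to 31.8, 24.9 and 22.3 CPM, a log2 change of 1.61 (SE 0.32, adjusted p = 0.0016). In all 3 the 48 h libraries lay above the 2 h libraries. Not every called rise was so steady. The 4522-nt member went from 11.3, 1.80 and 12.1 CPM to 68.4, 50.7 and 9.26 CPM, so its times overlapped. Its log2 change was 2.35 (SE 0.78, adjusted p = 0.033). Of the 12 members called at 48 h against 2 h, 11 had no overlap. The called rises ranged from 1.19 to 2.98 on the log2 scale.

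The called fall was that of TRINITY_DN12135_c0_g1_i2_7, of 1261 nt, which shot up at 2 h and partly came back. It stood at 3.27, 3.67 and 2.45 CPM at 0 h, at 50.7, 52.8 and 56.5 CPM at 2 h, and at 9.63, 17.6 and 15.4 CPM at 6 h. Its 2 h libraries were alike, 2 h replicate 2 included, and none overlapped with those of 0 h or 6 h. It then stood at 35.6, 29.3 and 23.0 CPM at 12 h and at 23.8, 12.5 and 12.7 CPM at 48 h. The log2 change was -1.91 (SE 0.29, adjusted p = 0.0048) from 2 h to 6 h and -1.71 (SE 0.29, adjusted p = 0.00046) from 2 h to 48 h. The return upward from 6 h to 12 h, 1.04 on the log2 scale (SE 0.29), did not pass (adjusted p = 0.13).

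**Figure D4:**
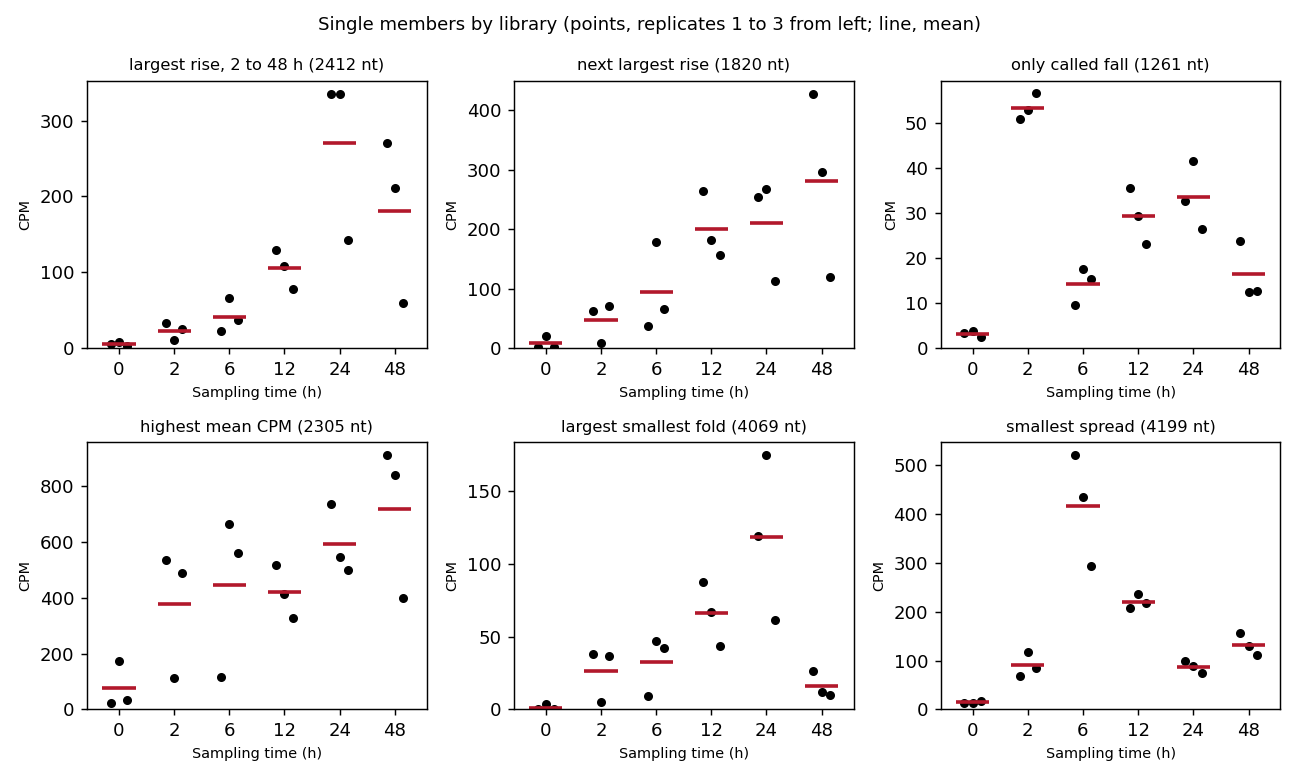
Level of 6 members (CPM, linear axes that start at 0) in each library by sampling time, with replicates 1 to 3 from left to right as points and the mean of each time as a line. The 1261-nt member is highest at 2 h, the 4199-nt member at 6 h and the 2412-nt and 4069-nt members at 24 h, while the means of the 1820-nt and 2305-nt members are highest at 48 h.

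Single steps moved few members past the threshold. From 2 h to 6 h 1 member rose and 1 fell (1.77% and 0.597% of the transcripts tested, 2.36% in either direction). The median log2 change was 0.19, and it was -0.22 with the pair that stood apart left out. Both calls were lost in a fit of the 2 h and 6 h libraries alone, where 0 members and 0.214% of the transcripts tested were called, and DESeq2 called 5 members (6.57% of those it tested). The riser was the 4199-nt member, which went from 67.3, 118 and 84.9 CPM to 520, 435 and 293 CPM, a log2 change of 2.21 (SE 0.25, adjusted p = 0.00071). The same transcript was among the falls from 12 h to 24 h, from 207, 235 and 218 CPM to 98.2, 89.5 and 74.4 CPM (log2 change -1.33, SE 0.24, adjusted p = 0.0073). Of all members it had the smallest spread between libraries of a time, a pooled SD of 0.29 on the log2 scale.

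From 6 h to 12 h 0 members were called by edgeR, where 0.0663% of the transcripts tested rose, 0.175% fell and 0.241% did either, although 49 members had a fitted change above 0 and the median was 0.87. At an unadjusted p under 0.05 there were 12 (21.4% of the members, 12.7% of the transcripts tested), and the DESeq2 test called 3 (3.86% of those it tested). From 12 h to 24 h 2 members rose and 2 fell (1.96% and 2.99% of the transcripts tested, 4.95% in either direction). Besides the 4199-nt member, the other fall was that of the 2761-nt member, from 193, 119 and 124 CPM to 35.0, 38.1 and 17.2 CPM (log2 change -2.27, SE 0.65, adjusted p = 0.0495). The rises were those of the 2323-nt and 1491-nt members, each of 1.30 on the log2 scale (adjusted p of 0.048 and 0.027). The count of 4 varied with the fit. It was 1 without 12 h replicate 1, 2 or 3 or 24 h replicate 2, and 2 without 24 h replicate 1 or 3 (1.29% to 5.39% of the transcripts tested). It was 15 in a fit of these libraries alone (6.8%), 9 with the pair that stood apart left out (6.63%), 9 by DESeq2 (9.21%) and 8 with at least 10 CPM in 3 libraries (12.2%). From 24 h to 48 h edgeR called 0 members (0.144% of the transcripts tested rose, 0.292% fell and 0.436% did either), with a median log2 change of -0.45 and 8 members at an unadjusted p under 0.05 (12.1% of the transcripts tested). DESeq2 called 2 (2.4% of those it tested). In the test of any change among 2 h to 48 h, 22 members passed (39.3%), near the 34.9% of all transcripts tested. How the members' share stood to the background varied with the fit. With the pair left out 33 of 56 passed, against 37.2% of the transcripts tested. By DESeq2 it was 34 of 55, against 48.5%. With at least 10 CPM in 3 libraries it was 24 of 55, against 66.2%.

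The most abundant member had 2305 nt, and its change after 2 h did not pass the threshold. It stood at 21.5, 172 and 32.9 CPM at 0 h, at 533, 112 and 490 CPM at 2 h and at 115, 664 and 559 CPM at 6 h. The high and the low libraries of these times were 0 h replicate 2, 2 h replicate 2 and 6 h replicate 1, so that the groups of 0 h and 2 h overlapped. At 48 h it stood at 911, 837 and 400 CPM, and its change from 2 h, 0.92 on the log2 scale (SE 0.73), did not pass (adjusted p = 0.37). It was also the member with the highest level per length at 48 h, a mean of 277 FPKM, from 43.2 FPKM at 0 h.

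The 4069-nt member had the largest smallest fold over 0 h, 13.4, which it showed at 48 h. It was at 0 counts in 0 h replicate 1 and at 3.43 and 0.20 CPM in replicates 2 and 3. Its level then passed through 38.2, 4.97 and 36.7 CPM at 2 h and 119, 175 and 61.6 CPM at 24 h to 26.7, 12.2 and 9.60 CPM at 48 h. The 329-nt member was the one whose later means differed least, from 6.84 CPM at 12 h to 9.09 CPM at 48 h, but its libraries were spread from 0.40 to 16.8 CPM at 6 h.

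At the later times 1 library carried a mean in a few members. At 0 h this was more common, since 18 members met the 1 CPM floor only through replicate 2. The 1028-nt member stood at 0.94, 45.9 and 0.44 CPM at 0 h, so all its folds rest on 0 h replicate 2. The 1028-nt member was at 237, 187 and 1892 CPM at 24 h, and its fold over 0 h at that time was 49.0 with replicate 3 and 13.5 without it. Leaving this member out, the summed level at 24 h was 6612, 6652 and 4625 CPM, so that the closeness of the 3 sums at 24 h rested on it. The 1488-nt member was at 7.33, 59.3 and 6.36 CPM at 6 h, and without 6 h replicate 2 its fold over 0 h there was 1.43, below the rule. The 4754-nt member was at 39.9 CPM in 2 h replicate 3 and at 7.61 CPM or less in the other 2 h libraries, a fold of 12.4 with 2 h replicate 3 and 5.09 without it.

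Within a time, the members were high or low in the same libraries. The rule used the means of these times, so this is given without a test. Against the mean of its own time, 0 h replicate 2 deviated by 1.20 in the median member on the log2 scale, 2 h replicate 2 by -1.15, 6 h replicate 1 by -0.96 and 48 h replicate 3 by -0.55. The same medians over all transcripts tested were within 0.05 of 0. At 48 h replicate 3 was the lowest library in 52 members and replicate 1 the highest in 46, against 33.9% and 34.7% of the transcripts tested. At 6 h replicate 1 was the lowest in 46 members, at 12 h and at 24 h replicate 3 in 36 each. Taking at each time the library most often extreme in the members, 19 members had all 6 of these extremes and 16 had 5, against 2.57% and 6.46% of the transcripts tested. The 6 libraries were chosen from the members, which lifts their share. Within-time spread was a pooled SD of 0.92 on the log2 scale in the median member, 0.65 over all transcripts tested and 0.49 over the 30087 with at least 1 CPM at 0 h.

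**Figure D5:**
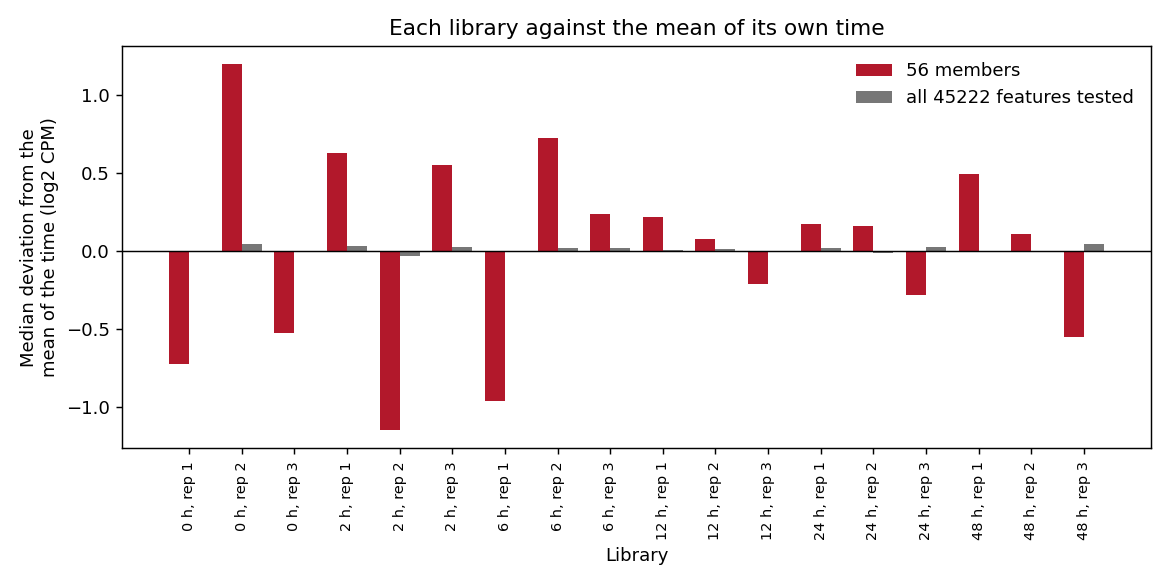
Median deviation of each library from the mean of its own time (log2 CPM) for the 56 members in red and all 45222 transcripts tested in grey. The members' bars reach 1.20 in 0 h replicate 2 and -1.15 in 2 h replicate 2, while the grey bars stay within 0.05 of 0.

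The spread differed by time, with a median SD of 1.26 at 0 h, 1.05 at 2 h and 0.93 at 6 h on the log2 scale. In the 2 libraries left without the pair it was 0.39 at 0 h and 0.17 at 2 h. It was 0.34 at 12 h, 0.41 at 24 h and 0.57 at 48 h. A few members did not follow this library order. The 1491-nt member had 1 of the 6 extremes, and the 2501-nt, 4199-nt and 1488-nt members had 2 each. In the 1491-nt member 0 h replicate 2 stood at 0.752 times the mean of the other 0 h libraries and 2 h replicate 2 at 0.911 times that of the other 2 h libraries. In the 4199-nt member these ratios were 0.856 and 1.55. In the 1488-nt member they were 5.17 and 1.15. At the other end, the 1932-nt member had 0 h replicate 2 at 85.4 times and 2 h replicate 2 at 0.136 times the mean of the others.

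The rule was also read in libraries that had no part in the choice, on lists chosen anew from the other libraries. Of the 26, 27 and 213 transcripts on these lists, 19, 22 and 30 were members. The shares below describe these lists and are not a check of the members as a set. Chosen on replicates 2 and 3, 26 transcripts met it, and in the replicate 1 libraries 14 of them (53.8%) were at least 4 times above 0 h at all 5 later times, against 1.70% of transcripts with at least 1 CPM at 0 h. Chosen on replicates 1 and 2, 27 met it, and 20 (74.1%) did so in the replicate 3 libraries, against 1.78%. Chosen on replicates 1 and 3, 213 met it, but in the replicate 2 libraries 5 (2.35%) did, against 0.751%. The failure was largest at 2 h, where 6 of the 213 (2.82%) reached 4 times in replicate 2, against 5.58% of the transcripts with at least 1 CPM at 0 h. At 24 h 95 of the 213 (44.6%) reached it, against 7.71%. Replicate numbers only name libraries here and do not pair them.

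Which transcripts met the rule depended on each 0 h library. Without 0 h replicate 1, 35 transcripts met it, 30 of the 56 among them, and without 0 h replicate 3, 38 did, with 29 of the 56. Without 0 h replicate 2 the number moved most, to 254 with 35 of the 56, and without it and 2 h replicate 2 together 276 did, again with 35 of the 56. In 18 members the mean of 0 h replicates 1 and 3 was under 1 CPM, so that the 1 CPM floor was met through replicate 2. The larger set of 276 had median folds, in the same libraries, of 8.37, 7.69, 13.5, 16.04 and 12.8 at the 5 later times in order.

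Members were longer than most transcripts tested. Their median length was 2457 nt, with quartiles of 1412 and 4299 nt and a range from 329 to 8007 nt. The median was 1009 nt over all transcripts tested and 1671 nt over those with at least 1 CPM at 0 h, a floor that a long transcript reaches more easily. The isoform number in the ID was 1 in 37.5% of the members, 66.8% of all tested and 53.7% of those with at least 1 CPM at 0 h.

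With the final digit of the ID counted as part of the gene ID, each deposited transcript had a gene ID of its own. Other transcripts tested carried the same gene number with another final digit in the ID, a digit whose meaning is not given in the sources used here. There were 74 of these, for 36 members, and their median log2 change against 0 h was -0.05 at 2 h and -0.37 at 48 h, where 4 were called higher and 10 lower (16.3% and 15.7% of the transcripts tested). The final digit was 4 in 13 members (23.2%, against 9.15% of the transcripts tested), 9 in 10 (17.9% against 12.8%) and 1 or 3 in 1 each.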

How the data were processed

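Leaf RNA was measured by RNA sequencing in 18 libraries, grouped by the titles and labelled time points. The authors' deposited estimated counts (89.6% not whole) were not scaled between libraries, and they also deposited FPKM for the same features. Per the file headers and IDs, each feature is a transcript of a Trinity assembly, made without a genome. Tools for alignment and counting were not given in the sources used here. No genome was used, and 0 per-sample columns were left unused. Count over FPKM gave lengths within 0.1 nt of a whole number for 99.98% of features.

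Counts were rounded, filtered with filterByExpr and scaled by TMM. One edgeR 4.0.16 model of the 6 times (R 4.3.3, common dispersion 0.24, all 18 libraries) was tested by quasi-likelihood with Benjamini-Hochberg adjustment over all features. A call needed an adjusted p below 0.05 with a log2 change of 1 or more in size, and for the test of any change only the former. The fit and the rule were tested on simulated counts. Alternatives were DESeq2 1.42.0, limma 3.58.1 on log2 FPKM with a pseudocount of 1 or 0.1, other filters, scalings, thresholds and a replicate block, and each library left out. Replicates of a time differed beyond counting noise (the lowest chi-square per degree of freedom was 11.1), so none was taken as a repeat deposit of another; this does not show separate plants. Calls of members against 0 h are not given, because the rule used those values.

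The deposited names were not used: an earlier analysis of these data found many named alignments longer than the feature they stand on, which was not rechecked here. No pathway list was therefore tested. IDs were printed for the members called between 2 h and 48 h that had no overlap between these times and reached 10 CPM in each library of the higher one, at most 2 in each direction, by size of change (10 rises and 1 fall qualified). Members described by an extreme value were set by the same rule, and the 1028-nt, 1488-nt, 4754-nt and 1932-nt members and the other called ones were chosen after their values were seen. The members and lists were chosen with earlier results of these data known.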

Additional observations from a re-analysis of the deposited data

How the results depend on the processing

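The number of transcripts that met the rule was 25 on FPKM, of which 20 were members. The other members did not meet it on FPKM. With library totals only it was 41, of which 38 were members, so membership depended on the scaling. TMM factors ran from 1.11 to 1.16 at 0 h and from 0.744 to 0.844 at 48 h. A lower factor raises a library's CPM, so TMM made the 48 h folds larger than library totals would. The number was 140 at 3 times and 12 at 6 times the 0 h mean. It was 91 with a floor of 0.5 CPM and 33 with one of 2 CPM. With medians it was 205, and with the pair of libraries that stood apart left out it was 276. Summing features that share a gene number whatever the final digit, an alternative added after seeing the data, gave 26. Leaving out 1 library, or every library of 1 replicate number, gave 26 to 254. Called members at 48 h against 2 h numbered 7 to 13 with a library left out (17.1% to 22.5% of all features called). From 2 h to 6 h 0 were called in a fit of those libraries alone (0.214% of all features) and 5 by DESeq2 (6.57%). From 6 h to 12 h DESeq2 called 3 (3.86%), limma on log2(FPKM + 1) 2 (0.918%), and the fit without that pair 1 (1.1%). From 12 h to 24 h the count was 2 without a filter (3.55%), 8 with at least 10 CPM in 3 libraries (12.2%), 15 with those libraries alone (6.8%), 9 without the pair (6.63%), 9 by DESeq2 (9.21%), and 1 to 2 with a library left out (1.29% to 5.39%). From 24 h to 48 h it was 1 with at least 10 CPM (2.18%), 2 without the pair (1.13%), 2 by DESeq2 (2.4%), and 2 and 1 by limma with a pseudocount of 1 and 0.1 (1.11% and 0.951%). DESeq2 called 34 members for any change among 2 h to 48 h, and 48.5% of all features. The cause of these shifts was not tested. With the replicate block, 9 members were called at 48 h against 2 h (21.6%), 2 from 12 h to 24 h (4.14%) and 18 for any change (30.8%). Deviations of same-numbered libraries had correlations of -0.37 to 0.20 over 45 pairs. Those of other-numbered libraries had -0.31 to 0.38 over 90 pairs, so the numbers were not taken as pairs. In the members, however, replicate 3 was most often the lowest library at 12 h, 24 h and 48 h. At 48 h against 2 h the rise of the 2412-nt member and the fall of the 1261-nt member kept their direction and stayed past the threshold under all 16 alternatives; the 1820-nt member kept its direction in all 16 and missed the threshold in 6. With 3 libraries a time, the within-time spread limits what can be called.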
